A study of Mus musculus with 12 samples.

Results

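Lifr and Socs3 sit at the top and at the brake of the signalling route that leukemia inhibitory factor (LIF) opens in mouse embryonic stem (ES) cells, and each carried 1 peak of N6-methyladenosine (m6A), an internal methyl mark of mRNA. The genes were chosen by name, as receptor and feedback inhibitor of the pathway, with the knockdown-over-scramble values of their peaks already known, so those values are given as a description with no test. They account for 8 of the 32586 rows in 4 peak tables, and 2 of the 6097 genes listed there. Each gene had 1 row in every table, and following the rows by coordinates gave 1 peak per gene, found in all 6 IP libraries.

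The study mapped m6A by pull-down of RNA fragments with an anti-m6A antibody in J1 cells, a mouse ES cell line. The groups were cells with an shRNA against Mettl14, cells with an shRNA against Mettl3 and cells with a scramble shRNA, with 2 IP libraries each. Mettl3 is the catalytic subunit of the complex that writes m6A, and Mettl14 is its RNA-binding partner. Cells of all 3 groups were infected with lentivirus, selected with puromycin as stable lines and grown in serum with added LIF on irradiated mouse embryonic fibroblasts, so the pathway was stimulated in the scramble cells as well, and RNA of the feeder cells may be present. The labels do not name the number of shRNA constructs or clones behind a group.

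LIF binds Lifr, which pairs with the shared receptor chain gp130 (Il6st). The receptor-bound kinase Jak1 then phosphorylates Stat3, which enters the nucleus and switches on genes that hold mouse ES cells in self-renewal. Socs3 is itself a Stat3 target, and its protein binds gp130 and the JAK kinases and shuts the signal down. In mRNA, m6A is known to gather near stop codons and in 3′ UTRs, and YTHDF-bound m6A is known to speed up decay of the mRNA.

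Each of the 4 tables sets 1 knockdown library beside 1 scramble library. Set 1 and set 2 are the tables built on each of the scramble libraries, so the Mettl14 and Mettl3 folds of a set rest on a common scramble value, are not independent and are only given side by side. The fold enrichment of a peak is the peak caller's value for the IP library over its control. It is not a plain ratio of the tag counts in the peak. A peak of 6 tags on Il6ra, for example, had an enrichment of 202 in the Mettl14 knockdown library of set 1. The authors multiplied the knockdown enrichments of a table by 1 constant, which was 0.906 in the Mettl14 table of set 1, 0.777 in that of set 2, 1.00 in the Mettl3 table of set 1 and 0.609 in that of set 2. Their knockdown-over-scramble folds use these scaled values. Enrichments and log2 changes of the pair are therefore given both as called and scaled. The median log2 change of all shared peaks was -0.06 and -0.59 in the Mettl14 tables and 0.22 and -0.91 in the Mettl3 tables, which is the shift to read a single peak against. The tables give no library totals, so depth was not known. With 2 libraries against 2, the smallest two-sided p of an exact permutation test is 0.333, so none was run.

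Neither targeted gene had a peak of its own and no expression values were analysed, so the knockdowns could not be checked here. Cell identity could be checked only loosely, since a peak shows an enriched stretch and not a level of mRNA. Of 12 ES cell markers, 5 had a listed peak (Sox2, Esrrb, Klf4, Sall4 and Fgf4), while Pou5f1 and Nanog had none. Of 12 feeder fibroblast markers, 3 had one (Thy1, Pdgfrb and Twist1), while Col1a1, Col1a2 and Fn1 had none. Listed feeder markers numbered 2 and 1 in the Mettl14 knockdown libraries of set 1 and set 2, 1 and 0 in the Mettl3 knockdown libraries and 2 and 2 in the scramble libraries, and their part in the values below was not tested. The RNA was from bulk cultures, where fewer cells of a type and less RNA per cell cannot be told apart.

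The letters under the peaks show how the pair differ. The search covered the transcript strand only and used GGACT, its variant GGACC and the wider m6A consensus, written NNACN, in which the first base is not cytosine, the second is a purine and the last is not guanine. The consensus takes in both shorter motifs. The windows below are from the GENCODE M21 transcripts Lifr-201 and Socs3-201 on mm10, 5′ to 3′, with the 5-base match in capitals. They are the GGAC matches of the consensus within 50 nt of a knockdown summit, each GGACT inside a peak, and for Lifr the GGACT nearest to the peak.

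Lifr, 3′ UTR, chr15:7191245-7191269 (+): atttctggagGGACCctgcaaatgt
Lifr, 3′ UTR, chr15:7191270-7191294 (+): tgatagccagGGACCttcactctgg
Lifr, coding, outside the peak, chr15:7181973-7181997 (+): cctgcctcctGGACTggagaaaggt
Socs3, coding, chr11:117967822-117967846 (-): ccgcctccagGGACCccctcctttt
Socs3, coding, chr11:117967614-117967638 (-): acggccacctGGACTcctatgagaa
Socs3, 3′ UTR, chr11:117967253-117967277 (-): tttgacaagcGGACTctcccctccc

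In both genes the GGAC match nearest to each summit was a GGACC. At Lifr this could not be otherwise, since all 4 GGAC matches of the consensus in the peak were GGACC. At Socs3, 5 of the 10 were. The GGACC pair of Lifr lay 90 and 115 nt after the first base of the stop codon, 13 and 8 nt from the nearest summit. The GGACC of Socs3 lay 279 nt before the first base of the stop codon and 9 nt from the nearest summit. Among 101-nt windows centred on knockdown summits, 20.2% to 21.5% per table held a GGACC, against 11.2% of the 189748 windows tiled over the same 4263 transcripts. GGACT stood in 23.0% to 25.6% of the summit windows, against 10.6% of the tiled windows. A GGAC with any next base stood in 59.6% to 62.0% of the summit windows, against 34.3% of the tiled windows. A match describes the letters and does not show which base was methylated.

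The Lifr peak held no GGACT in any of the 6 calls, although Lifr-201 has 6 elsewhere. Among knockdown peaks within 20% of its width on their transcripts, 73.5% to 78.1% per table held at least 1. The scramble calls of Lifr held 30 consensus matches in set 1 and 31 in set 2, or 29.1 and 28.4 per kb, against 22.8 and 23.0 per kb in the rest of the transcript. The Socs3 peak held 2 GGACT in each of the 6 calls, and 1 more lay outside it. Among knockdown peaks within 20% of the width of the Socs3 peak, 87.4% to 95.4% per table held a GGACT. Its scramble calls held 38 consensus matches each, 17.8 per kb in both sets, against 17.0 and 16.7 per kb outside.

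**Figure D1:**
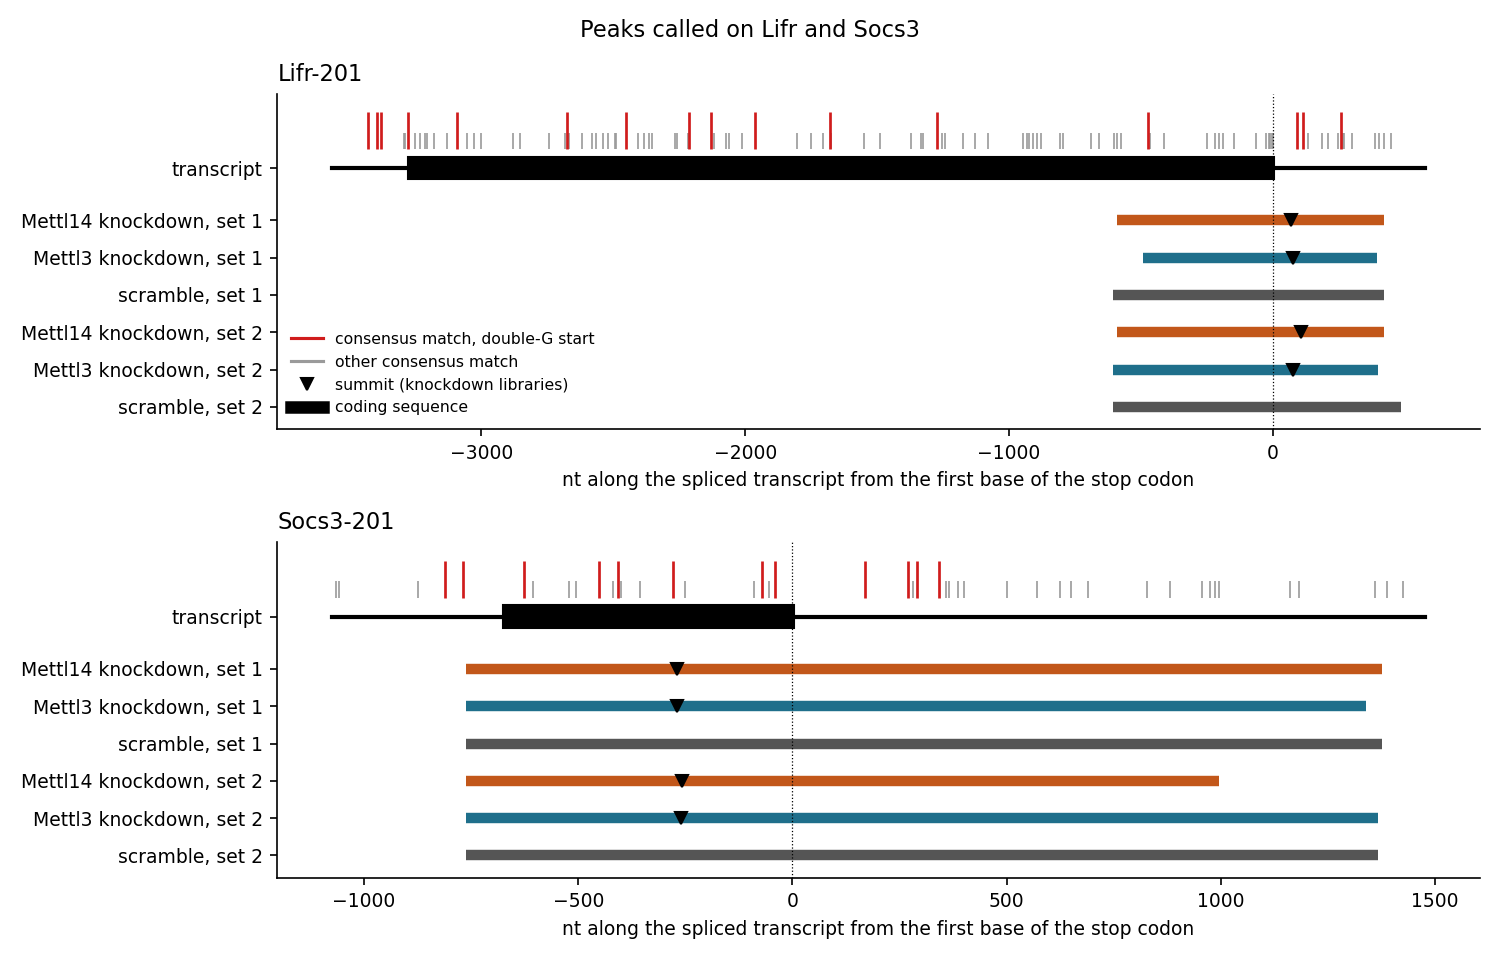
Peaks called on Lifr-201 and Socs3-201 in the 6 IP libraries, by distance in nt along the spliced transcript from the first base of the stop codon. Bars are calls, triangles are summits of the knockdown libraries, ticks are matches of the m6A consensus (tall where it starts with a double G). The Lifr calls straddle the stop codon with summits 70 to 107 nt after it, and the Socs3 calls fill nearly all of its exon 2 with summits 258 to 270 nt before the stop codon. Intronic bases of the Socs3 calls are not drawn.

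The Lifr peak (gene ENSMUSG00000054263, chromosome 15, plus strand, mm10) lay in the last exon, exon 20 of Lifr-201, at 7190546 to 7191743. Lifr-201 codes for 1092 amino acids, and the exon holds the last 621 coding bases, the stop codon at 7191167 to 7191169 and the 574-nt 3′ UTR. The calls ran over 7190575 to 7191590 and 7190576 to 7191588 in the Mettl14 knockdown libraries of set 1 and set 2, over 7190673 to 7191563 and 7190560 to 7191566 in the Mettl3 knockdown libraries, and over 7190560 to 7191590 and 7190562 to 7191654 in the scramble libraries. All 6 calls thus shared a core around the stop codon, and each knockdown call overlapped the scramble call of its set over 99.8% to 100% of the shorter peak. Coding bases made up 58.3% of both Mettl14 knockdown calls, 55.4% and 60.3% of the Mettl3 knockdown calls, and 58.9% and 55.4% of the scramble calls, with the rest in the stop codon and 3′ UTR. The exon under the peak belongs to Lifr-201, Lifr-203 and Lifr-204, and not to the shorter coding transcripts Lifr-202, Lifr-207 and Lifr-208. No other annotated gene on either strand overlapped it.

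The 4 knockdown summits of Lifr fell within 37 nt of each other. They stood 70 and 107 nt after the first base of the stop codon in the Mettl14 knockdown libraries and 77 and 75 nt after it in the Mettl3 knockdown libraries. The deposited row of a shared peak carries the knockdown library's tags and summit only, so the same values of the scramble calls are not analysed here. Of all knockdown summits placed on a coding transcript, 25.0% to 29.1% per table lay within 200 nt of the stop codon, on either side.

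The Socs3 peak (gene ENSMUSG00000053113, chromosome 11, minus strand, mm10) covered nearly all of exon 2 of Socs3-201, at 117966079 to 117968318, and ran on into the intron before it. Exon 2 holds the last 88 bases of the 5′ UTR, the whole 675-nt coding sequence, the stop codon at 117967553 to 117967555 and the 1474-nt 3′ UTR. The calls ran over 117966179 to 117968421 and 117966560 to 117968416 in the Mettl14 knockdown libraries, over 117966216 to 117968482 and 117966188 to 117968544 in the Mettl3 knockdown libraries, and over 117966179 to 117968544 and 117966187 to 117968599 in the scramble libraries. The coding sequence lay inside each of the 6 calls. The intronic stretch measured 103 and 98 nt in the Mettl14 knockdown calls, 164 and 226 nt in the Mettl3 knockdown calls, and 226 and 281 nt in the scramble calls. Its Mettl14 knockdown call in set 2 was the shortest at 1857 nt, 77.0% of the scramble call's width, and stopped earlier in the 3′ UTR, 995 nt after the first base of the stop codon, where the other 5 calls reached 1339 to 1376 nt. No other annotated gene overlapped the peak.

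The 4 knockdown summits of Socs3 fell within 12 nt of each other, in the coding sequence. They stood 269 and 258 nt before the first base of the stop codon in the Mettl14 knockdown libraries, and 270 and 259 nt before it in the Mettl3 knockdown libraries. The pair thus differed in where the signal was highest, Lifr just after the stop codon and Socs3 in the coding sequence, and in how much of the mRNA was called. The exonic part of the scramble calls took in 24.9% and 26.4% of Lifr-201, against 83.9% and 83.5% of Socs3-201.

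Both genes kept their peak in all 6 IP libraries. Of the 7886 peaks of the set 1 scramble library, 28.3% were found in all 6. Lifr had 142 and 174 tags in the Mettl14 knockdown libraries of set 1 and set 2 and 157 and 168 in the Mettl3 knockdown libraries. Socs3 had 476 and 460 tags in the Mettl14 knockdown libraries and 496 and 438 in the Mettl3 knockdown libraries. Per kb of peak, that came to 140 to 176 tags for Lifr and 186 to 248 tags for Socs3. In the authors' deposited tables, the FDR of the knockdown peaks was at most 0.36% for Lifr and 1.68% for Socs3.

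Lifr enrichment as called was 20.9 and 11.0 in the Mettl14 knockdown libraries of set 1 and set 2, 18.3 and 11.0 in the Mettl3 knockdown libraries, and 16.3 and 6.73 in the scramble libraries. Both knockdown libraries of a set stood above the scramble library of that set, but the 3 groups overlapped, since each set 1 library exceeded each set 2 library. The group means were 15.9 ± 6.98, 14.7 ± 5.16 and 11.5 ± 6.73 for Mettl14 knockdown, Mettl3 knockdown and scramble (SD, n = 2 each). Neighbours in that order differed by less than these SDs. The SDs hold the difference between set 1 and set 2, which all 3 groups showed. They do not measure the spread of the differences within a set. The set 1 scramble library exceeded the set 2 scramble library 2.41-fold, a log2 difference of 1.27 within the control group.

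After the authors' scaling, Lifr enrichment was 18.9 and 8.53 in the Mettl14 knockdown libraries and 18.4 and 6.72 in the Mettl3 knockdown libraries, against 16.3 and 6.73 in the scramble libraries. The groups overlapped on this scale as well. The log2 change of Lifr from the authors' deposited tables was 0.22 and 0.34 for Mettl14 knockdown over scramble, a mean of 0.28 ± 0.09 (SD, n = 2). It was 0.18 and -0.0031 for Mettl3 knockdown over scramble, a mean of 0.09 ± 0.13 (SD, n = 2). Without the scaling the 4 log2 changes were 0.36, 0.71, 0.17 and 0.71 in the same order, and with each table's median set to 0 they were 0.28, 0.94, -0.04 and 0.91. The Mettl14 values were above 0 on all 3 scales, while each Mettl3 value changed sign on at least 1 of them.

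Socs3 enrichment as called was 6.51 and 3.81 in the Mettl14 knockdown libraries of set 1 and set 2, 8.32 and 7.64 in the Mettl3 knockdown libraries, and 3.70 and 3.75 in the scramble libraries. On this scale the groups did not overlap, with Mettl3 knockdown highest, Mettl14 knockdown between and scramble lowest, although the 3.81 of the Mettl14 knockdown library in set 2 stood close to the 3.75 of its scramble library. The group means were 5.16 ± 1.91, 7.98 ± 0.48 and 3.73 ± 0.04 for Mettl14 knockdown, Mettl3 knockdown and scramble (SD, n = 2 each). Unlike at Lifr, the scramble libraries were nearly alike at Socs3, with a ratio of 0.987 between set 1 and set 2.

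After the authors' scaling, Socs3 enrichment was 5.90 and 2.96 in the Mettl14 knockdown libraries and 8.34 and 4.65 in the Mettl3 knockdown libraries, against 3.70 and 3.75 in the scramble libraries. Both Mettl3 knockdown libraries still stood above both scramble libraries, while the Mettl14 knockdown libraries stood on either side of them and overlapped the Mettl3 knockdown libraries. The log2 change of Socs3 from the authors' deposited tables was 1.17 and 0.31 for Mettl3 knockdown over scramble, a mean of 0.74 ± 0.61 (SD, n = 2). It was 0.67 and -0.34 for Mettl14 knockdown over scramble, a mean of 0.17 ± 0.72 (SD, n = 2), so the sets went opposite ways. Without the scaling the log2 changes were 1.17 and 1.03 for Mettl3 knockdown and 0.82 and 0.023 for Mettl14 knockdown, and with each table's median set to 0 they were 0.95 and 1.22, and 0.74 and 0.25. The direction was thus the same on the 3 scales for Mettl3 knockdown and for Mettl14 knockdown in set 1, and turned for Mettl14 knockdown in set 2.

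**Figure D2:**
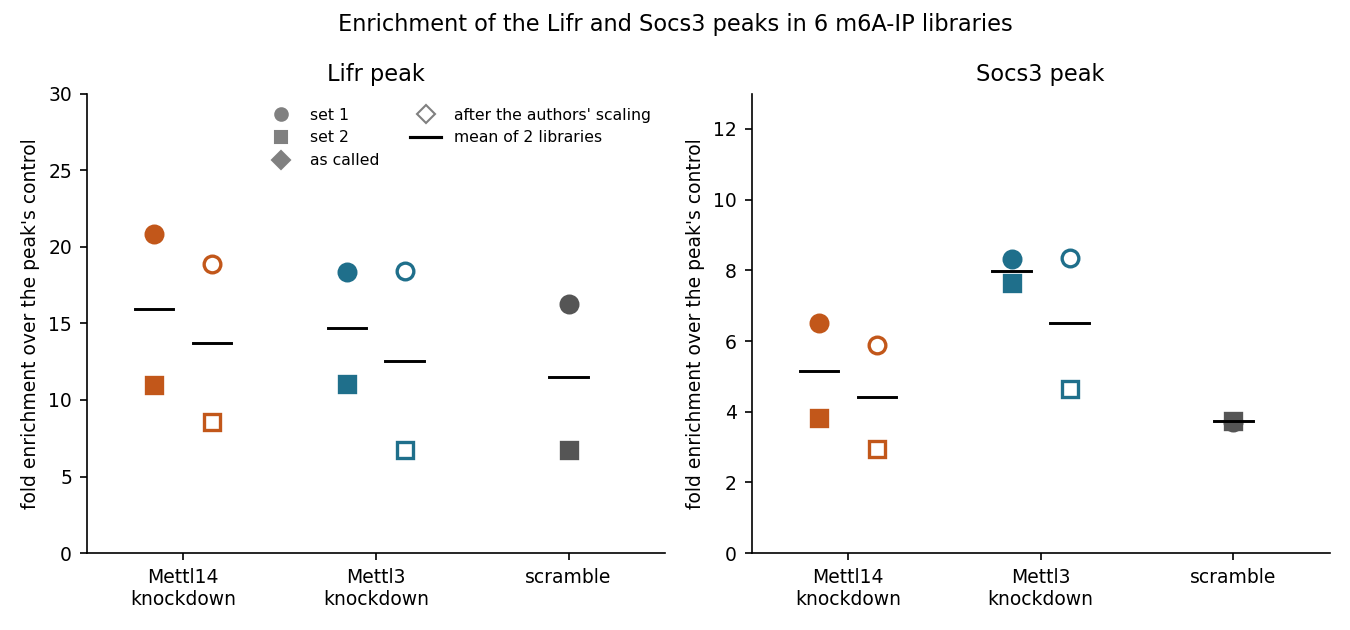
Fold enrichment of the Lifr and Socs3 peaks over their own control in each IP library (vertical axes from 0), by group, with set 1 as circles and set 2 as squares. Filled marks are the values as called, open marks the knockdown values after the authors' scaling, and bars the mean of 2 libraries. Lifr differs more between the sets than between the groups, and the 2 Mettl3 knockdown values of Socs3 lie above the scramble values of 3.70 and 3.75 on both scales.

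The calls over all listed genes give the background for the pair. A gene was counted as higher in a table when each of its listed peaks was found in the knockdown library alone or had a positive log2 change, and as lower when each was found in the scramble library alone or had a negative one. Lifr was higher in both sets after Mettl14 knockdown, as were 7.60% of the 3972 genes listed in both tables, while 41.7% were lower in both. Socs3 was higher in both sets after Mettl3 knockdown, as were 5.82% of the 3901 genes listed in both tables, while 33.5% were lower in both. Without the scaling, 13.1% and 15.7% of genes were higher in both sets after Mettl14 and Mettl3 knockdown, and with each table's median at 0, 15.7% and 14.8%. Lifr then also counted as higher in both sets after Mettl3 knockdown without the scaling, and Socs3 after Mettl14 knockdown on both of these scales. Table by table, 27.4% of genes were higher and 57.8% lower after Mettl14 knockdown in set 1, and 19.8% and 70.5% in set 2. After Mettl3 knockdown, 34.7% were higher and 49.6% lower in set 1, and 16.0% and 75.6% in set 2. Since the pair were chosen with these calls known, nothing is read from their falling in the smaller class.

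Among the shared peaks of each table, where 1 constant for all peaks leaves the ranks as they are, the log2 change of Lifr exceeded 68.6% and 93.1% of them in the Mettl14 tables of set 1 and set 2, and 47.1% and 92.9% in the Mettl3 tables. Socs3 exceeded 85.4% and 67.2% in the Mettl14 tables, and 87.2% and 96.6% in the Mettl3 tables. A value near 0 in a Mettl3 set 2 table whose median was -0.91 thus stood high among its neighbours, as at Lifr. In level the pair were apart. Lifr enrichment exceeded 38.7% to 56.1% of the knockdown library's peaks and Socs3 enrichment 0.69% to 20.5%, while the width of Lifr exceeded 80.8% to 87.0% and that of Socs3 95.8% to 98.9%. Socs3 was a broad peak of low fold, and Lifr a peak of middling fold.

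**Figure D3:**
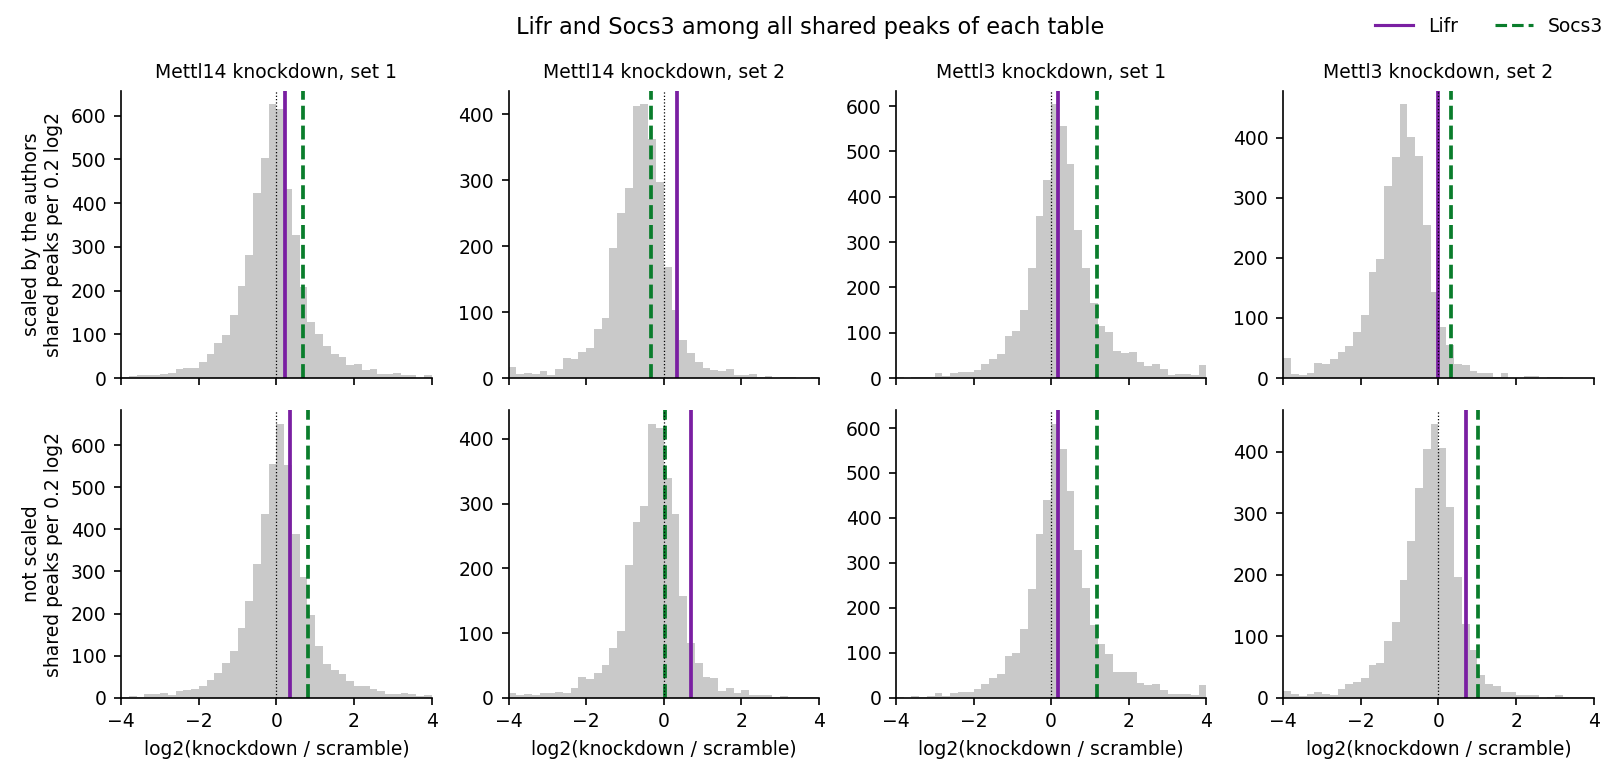
Histograms of the log2 change, knockdown over scramble, of all peaks shared by both libraries of a table (grey, peaks per 0.2 log2, values beyond 4 in the end bins), after the authors' scaling (top) and without it (bottom). Lines mark Lifr (solid) and Socs3 (dashed). Both lie to the right of the median in the set 2 tables, whose scaled medians are -0.59 for Mettl14 and -0.91 for Mettl3.

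By the distance of their log2 changes over the 4 tables, the peaks most like Lifr were those of Zfp839, Bcl11b, Tns3, Nsd1 and Fbxo10, at distances of 0.144 to 0.349. They were sought among 2326 peaks shared in all 4 tables, on 1900 genes. Zfp839, the nearest, had log2 changes of 0.31 and 0.26 after Mettl14 knockdown and 0.13 and -0.06 after Mettl3 knockdown. The peaks most like Socs3 were those of Dclre1c, Gltscr1, Cnst, Ndor1 and Csrnp2, farther off at 0.469 to 0.579. Dclre1c, the nearest, had 0.59 and -0.20 after Mettl14 knockdown and 1.34 and 0.72 after Mettl3 knockdown. Gltscr1, Cnst, Ndor1 and Csrnp2 were below 0 after Mettl3 knockdown in set 2, at -0.04, -0.09, -0.18 and -0.23, where Socs3 had 0.31. They were thus not higher in both Mettl3 sets, as Socs3 was. The Mettl14 and Mettl3 values of a set share their scramble library, which also enters the likeness.

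The other genes of the pathway were taken from a list of 52 by role, the pair left out. Of these, 30 had at least 1 peak in the tables and 22 were listed in all 4, while another 22, among them Stat3, Socs1, Osmr, Nanog, Klf5 and Tfcp2l1, had no listed peak. After Mettl14 knockdown, 6 of the 22 listed in both sets were lower in both (27.3%, against 41.7% of all genes) and 3 were higher in both (13.6%, against 7.60%). After Mettl3 knockdown, 2 of 23 were lower in both (8.70%, against 33.5%) and 2 were higher in both (8.70%, against 5.82%). The median log2 change of their shared peaks was 0.10 and -0.24 in the Mettl14 tables and 0.46 and -0.69 in the Mettl3 tables, beside -0.06, -0.59, 0.22 and -0.91 for all shared peaks.

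These counts depended on the scaling. Without it, 5 of the 22 were higher in both sets after Mettl14 knockdown (22.7%, against 13.1% of all genes), with Sall4 and Tbx3 joining, and 9 of the 23 after Mettl3 knockdown (39.1%, against 15.7%), with Gbx2, Il6st, Jak1, Myc, Sall4, Socs6 and Sos1 joining. With each table's median at 0 the higher genes numbered 5 and 7 (22.7% and 30.4%, against 15.7% and 14.8% of all genes). Among the lower genes after Mettl14 knockdown, Jak1 dropped out without the scaling, and Jak1 and Socs5 with the median at 0. Junb and Socs5 joined the lower genes after Mettl3 knockdown with the median at 0. At an FDR of 5% or less, Jak2 left the lower genes of both knockdowns, and Ptpn11 left the lower and Pias2 the higher genes after Mettl3 knockdown. Gbx2 joined the higher genes after Mettl14 knockdown. Higher in both were then 4 of 18 after Mettl14 knockdown (22.2%, against 8.54% of all genes) and 1 of 17 after Mettl3 knockdown (5.88%, against 6.23%). Lower in both were 5 of 18 (27.8%, against 41.3%) and 0 of 17 (against 31.1%). Single log2 changes below are after the authors' scaling, and the value without it is added where the sign turns.

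At the head of the pathway, Lif, which encodes the ligand, had 1 scramble peak in set 2 and it was missing from both knockdown libraries, while the Mettl3 knockdown library had a peak of its own. In set 1 one Lif peak was missing from both knockdown libraries, and another had a log2 change of 0.85 after Mettl14 knockdown and 1.57 after Mettl3 knockdown. Il6st, which encodes the gp130 chain that pairs with Lifr, kept 1 shared peak in each table, with log2 changes of -0.50 and 0.18 after Mettl14 knockdown and 0.42 and -0.30 after Mettl3 knockdown. After the scaling its sets went opposite ways under each knockdown, while without it the Mettl3 value in set 2 was 0.42 and both Mettl3 sets were above 0. The remaining members of these classes rested on few tags. Ctf1, a related ligand, had a peak of 10 tags in the Mettl14 knockdown library of set 2 alone, and Il6ra, the IL-6 receptor chain, had peaks of at most 9 tags, in set 1 alone.

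Of the kinases, Jak1 and Jak2 had a listed peak. Jak1, the main kinase at gp130, had log2 changes of -0.79 and -0.17 after Mettl14 knockdown, and of 0.04 and -0.69 after Mettl3 knockdown. Without the scaling the set 2 values were 0.19 and 0.027. The Jak2 peak was in both scramble libraries and in none of the 4 knockdown libraries, but it rested on 13 and 14 tags.

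Socs3 was 1 of 11 inhibitors with a listed peak. Cish, another STAT-induced member of the Socs family, had log2 changes of 1.71 and 2.63 after Mettl14 and Mettl3 knockdown in set 1. In set 2 the Cish peak was missing after Mettl14 knockdown and had a log2 change of -1.22 after Mettl3 knockdown. Socs4 had log2 changes of 0.10 and -0.64 after Mettl14 knockdown and 0.45 and -1.73 after Mettl3 knockdown. Socs5 was lower in both sets after Mettl14 knockdown, at -0.51 and -0.57, and after Mettl3 knockdown it had 0.12 in set 1 and 2 peaks at -1.02 and -1.55 in set 2. Socs7 was lower in both after Mettl14 knockdown as well, at -0.20 in set 1 and with its peak missing in set 2, and had 0.89 and -1.08 after Mettl3 knockdown. Pias4, a SUMO ligase that restrains STAT proteins, had -0.45 and -0.76 after Mettl14 knockdown at the peak shared in both sets, and lost a second peak in set 2. After Mettl3 knockdown it had 0.81 and -0.73 at the shared peak, and the second peak was missing in set 2 as well. Pias2, of the same family, was higher in both sets after Mettl3 knockdown, with 0.34 in set 1 and a peak of the knockdown library alone in set 2. Socs2, Pias1 and the phosphatase Ptpn1 had peaks that went both ways in at least 1 table. So did Socs6 after Mettl14 knockdown in set 2, where its shared peak had -0.33, or 0.031 without the scaling.

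Side branches leave the receptor, through RAS and through PI3 kinase. Ptpn11, the phosphatase SHP2 that links gp130 to RAS, lost its peak in both sets after Mettl3 knockdown, and after Mettl14 knockdown it had 0.02 in set 1 and lost it in set 2. Sos1, the exchange factor that loads RAS with GTP, was higher in both sets after Mettl14 knockdown, at 0.47 and 0.23, and had 0.31 and -0.32 after Mettl3 knockdown, the last of them 0.40 without the scaling. Pik3ca, the catalytic subunit of PI3 kinase, was lower in both sets after Mettl14 knockdown, at -0.36 and -1.03, and had 0.51 and -1.23 at that peak after Mettl3 knockdown. Its regulatory subunit Pik3r1 was lower in both set 2 tables after the scaling (1 of its 3 peaks turned positive in each without it, at 0.16 after Mettl14 and 0.07 after Mettl3 knockdown), had peaks going both ways after Mettl14 knockdown in set 1 and was higher there after Mettl3 knockdown. The Shc1 peak of the set 1 scramble library was missing from both knockdown libraries, and Akt1 had a peak of 9 tags in the Mettl14 knockdown library of set 1 alone.

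Among the pathway's targets, Klf4, a self-renewal factor that Stat3 switches on, was higher in all 4 tables. Its shared peak had log2 changes of 1.11 and 0.70 after Mettl14 knockdown and 1.37 and 0.73 after Mettl3 knockdown. Klf4 enrichment as called was 10.9 and 7.90 in the Mettl14 knockdown libraries and 11.8 and 10.3 in the Mettl3 knockdown libraries, against 4.58 and 3.79 in the scramble libraries. Myc was higher in both sets after Mettl14 knockdown, at 0.23 and 0.22, and had 0.55 and -0.02 after Mettl3 knockdown, the last of them 0.69 without the scaling. Junb, an immediate target, had 0.10 and -0.98 after Mettl14 knockdown and 0.01 and -1.34 after Mettl3 knockdown. Sall4 had 0.13 and -0.18 after Mettl14 knockdown and 0.30 and -0.40 after Mettl3 knockdown, and without the scaling its set 2 values were 0.19 and 0.32. The better covered peak of Gbx2, another self-renewal factor downstream of Stat3, had 0.87 and 0.49 after Mettl14 knockdown and 0.83 and 0.30 after Mettl3 knockdown. The other Gbx2 peak had 0.28 after Mettl14 knockdown in set 1 and was missing in set 2. After Mettl3 knockdown it had 0.44 and -0.19, the last of them 0.52 without the scaling. The Tbx3 peak shared in all 4 tables had 0.95 and -0.24 after Mettl14 knockdown and 0.33 and -0.26 after Mettl3 knockdown, and without the scaling its set 2 values were 0.12 and 0.46. Another Tbx3 peak in set 1 had -0.01 after Mettl14 knockdown, or 0.13 without the scaling, and was missing after Mettl3 knockdown. Both Bcl3 peaks of the set 1 scramble library were missing from the knockdown libraries, and Esrrb had peaks in knockdown libraries alone, Mettl14 in set 1 and Mettl3 in set 2.

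**Figure D4:**
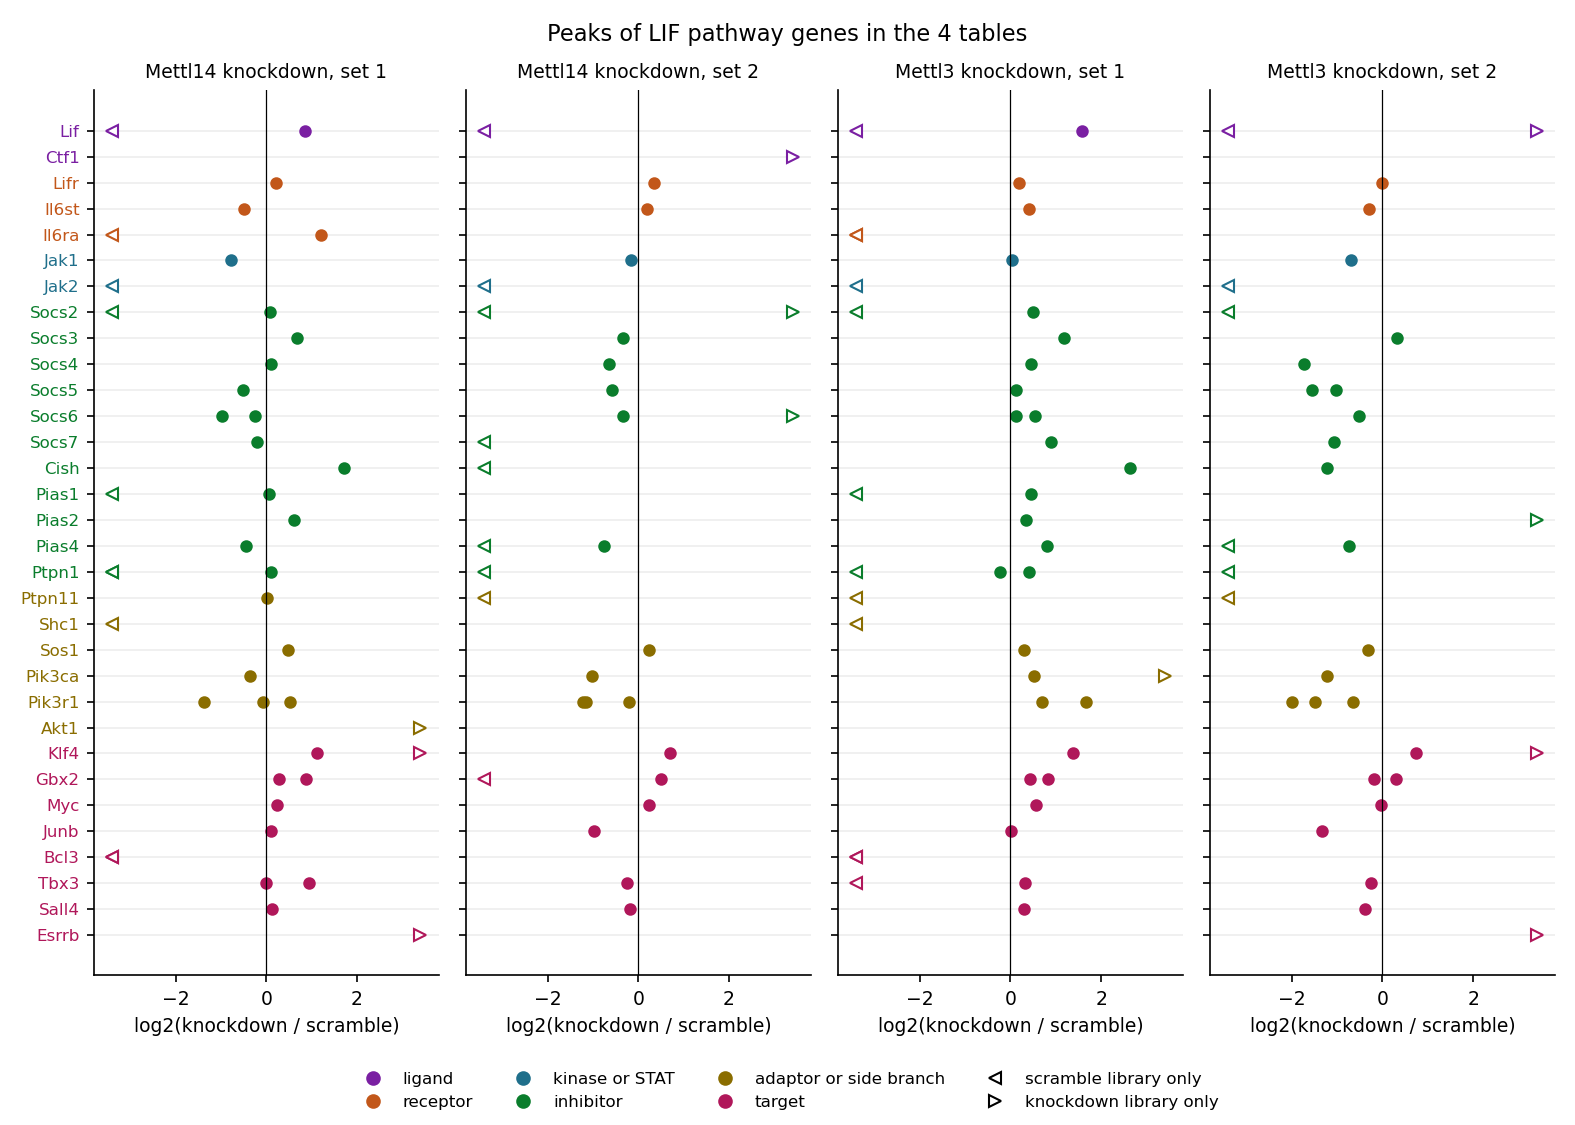
Log2 change, knockdown over scramble, of each peak on the 32 LIF pathway genes with a listed peak, Lifr and Socs3 included, 1 panel per table, coloured by role. Filled points are shared peaks after the authors' scaling, open left triangles peaks of the scramble library alone and open right triangles peaks of the knockdown library alone. Klf4 lies right of 0 in all 4 panels, and Jak2 is a left triangle in each.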

How the data were processed

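Poly(A) RNA was fragmented and pulled down with an anti-m6A antibody, per the labels' protocols. The submitters' processing notes name Bowtie 0.12.7, CASAVA 1.8.2, Picard 1.74, SAMtools 0.1.18, TopHat2 2.0.6 and cutadapt 1.1, with the build mm10. Not given in the sources used here are the version of the peak caller, the Ensembl release and the basis of the scaling. Peaks were called with MACS per IP library and strand, per the file headers, with a tag count, a fold enrichment ratio, a peak score and an FDR in percent for each peak. The deposited signed fold score compares scaled enrichments of peaks found in both libraries of a table. It was turned into log2, and solving it returned the deposited scramble enrichment of all 1624 peaks in set 1 and all 1209 in set 2 that could be checked, within 0.01. Set 1 and set 2 only separate the tables, and no source used here ties them to replicate numbers. Nothing says that libraries came from separate cultures. The 6 no-antibody libraries are not analysed here on their own. Each deposited enrichment is taken as a ratio of an IP library over its own input library. The members, the lists and the tests were chosen with earlier results of these data known. Named genes were the pair, the pathway list and, for each member, the 5 genes at the smallest Euclidean distance of log2 changes over the 4 tables. A gene of the planned list is not reported here. Transcripts, exons and letters came from GENCODE M21. The turning of signed folds into log2 and the calling of genes were tested on simulated data, while the reading of the deposited values was not. Tables were handled with pandas 2.3.3 and numpy 2.4.6.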

Additional observations from a re-analysis of the deposited data

How the results depend on the processing

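The alternatives dropped the authors' scaling, set each table's median to 0, kept peaks at an FDR of 5% or less, asked for an overlap of 50% of the shorter peak, or left out each set. The member peaks already met the stricter FDR and overlap, so these 2 settings could not change their 4 mean log2 changes and say nothing on how firm they are. The mean for Lifr after Mettl14 knockdown moved to 0.53 without scaling and 0.61 with the median at 0, and ranged over 0.22 to 0.34 with 1 set left out. For Lifr after Mettl3 knockdown it was 0.44 and 0.43, and -0.0031 to 0.18 with 1 set left out. For Socs3 after Mettl14 knockdown the sets gave -0.34 to 0.67, and for Socs3 after Mettl3 knockdown 0.31 to 1.17. Single values that changed sign were Socs3 after Mettl14 knockdown in set 2, at 0.023 without scaling and 0.25 with the median at 0, Lifr after Mettl3 knockdown in set 2, at 0.71 and 0.91, and Lifr after Mettl3 knockdown in set 1, at -0.045 with the median at 0. Genes higher in both sets numbered 302 (7.60%) for Mettl14, and 521 (13.1%) without scaling, 625 (15.7%) with the median at 0 and 869 to 1492 (19.8% to 27.4%) in single sets. For Mettl3 they numbered 227 (5.82%), and 612 (15.7%), 579 (14.8%) and 693 to 1838 (16.0% to 34.7%). Genes lower in both numbered 1657 (41.7%) for Mettl14 and 1308 (33.5%) for Mettl3. In single sets they numbered 3145 of 5444 (57.8%) in set 1 and 3099 of 4395 (70.5%) in set 2 for Mettl14. For Mettl3 they numbered 2629 of 5296 (49.6%) in set 1 and 3274 of 4330 (75.6%) in set 2. Of the pathway list, Lifr and Socs3 included, 7 genes were higher after Mettl14 knockdown without scaling, 7 with the median at 0 and 6 to 14 in single sets. After Mettl3 knockdown these were 11, 8 and 4 to 19. List genes lower numbered 10 to 16 in single sets for Mettl14. For Mettl3 they numbered 4 with the median at 0, 0 at the stricter FDR and 5 to 20 in single sets, where all genes lower came to 31.2%, 31.1% and the single-set shares above. The cause of these shifts was not tested, but a single set is by construction a weaker demand than both. Tags per kb as a comparison with scramble were not run, since rows of shared peaks carry knockdown tags only. Motif counts over the knockdown calls stayed within 1.5 times of those over the scramble calls. No paired analysis was possible because the table columns carry no replicate numbers, so libraries could not be paired by the replicate numbers of the labels. The pairing used here is by set only, since the log2 changes are already differences within a set. Depth of the libraries was not known, and tags per peak limit thin peaks such as that of Jak2.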
